A study of Mus musculus with 20 samples.

Results

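The genes described here are 37 type I interferon stimulated genes, taken by symbol from a fixed list, of 23382 genes in the deposited tables. All 37 were found, and 36 of them were among the 11386 genes tested. They were followed in 20 RNA-seq libraries from sorted mouse germinal centre B cells, with 5 libraries for each pairing of zone and Myd88 genotype. Centroblasts, the dark zone cells, had been sorted as B220+ FAS+ GL7+ cells that were CXCR4+ and CD86-, and centrocytes, the light zone cells, as B220+ FAS+ GL7+ cells that were CXCR4- and CD86+. All 4 groups carried 1 copy of Cgamma1Cre, a Cre recombinase driven from the locus of an immunoglobulin heavy chain constant region and active in B cells entering the germinal centre. Control libraries were wild type at Myd88L252P and mutant libraries were heterozygous for it. The allele encodes the L252P change in MYD88, an adaptor that most Toll-like receptors signal through. It is the mouse counterpart of a change found in human B cell lymphomas. The age, sex, strain and immunisation of the mice are not stated in the sources used here. Nothing in the labels ties each library to its own mouse, so the p-values reflect the spread among these samples only, which may be technical.

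Type I interferons are secreted proteins that bind a receptor made of IFNAR1 and IFNAR2. The kinases JAK1 and TYK2 then act on a complex that holds STAT2 and IRF9 and binds a DNA element, the interferon stimulated response element, in front of many target genes. The targets include sensors of viral RNA and DNA, enzymes that block viral replication, and factors such as IRF7 that raise further interferon output. MYD88 lies upstream of interferon itself, since some endosomal Toll-like receptors, TLR3 not among them, reach IRF7 through it. In bulk RNA a change in the number of cells of one type and a change in RNA per cell cannot be told apart.

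The response element was searched as GAAA, any 2 bases and GAAA again, on both strands (TTTC, any 2 bases and TTTC on the other), with overlapping matches kept, in the 300 bases around each start site (250 before and 50 after) in RefSeq promoter windows of build GRCm38.p6. The table held 27 of the 37 genes. Dhx58, Mx1, Mx2, Oas2, Rtp4, Usp18, Zbp1, Parp9, Parp14 and Ifi27l2a were not matched. At least 1 match stood in 11 of the 27 genes (40.7%), against 3.99% of all 27025 genes of the table. The gamma-activated element TTCNNNGAA, named for its part in responses to interferon gamma, stood in 8 of the 27 (29.6%) against 9.55%. A match describes the letters only. The 250 bases before the start are shown for the genes given below in every library, Isg15 first because it had the lowest adjusted p in centrocytes. Irf9 has a pair of windows and the more 5′ is shown. In the annotation GENCODE M21 Irf9 starts at 55603571, so both of its windows lie after that start. Bases 6 to 25 after the window's start lay in a GENCODE transcript of the gene for 29 of the 34 windows of these genes. Capitals mark the matches to the response element, and each sequence runs 5′ to 3′ along the strand of its gene.
Isg15, chr4:156200819-156201068, minus strand: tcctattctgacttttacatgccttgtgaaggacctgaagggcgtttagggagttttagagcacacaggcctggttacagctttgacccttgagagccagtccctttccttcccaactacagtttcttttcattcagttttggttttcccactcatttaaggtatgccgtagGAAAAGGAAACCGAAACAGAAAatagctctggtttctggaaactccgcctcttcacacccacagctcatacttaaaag
Irf9, chr14:55603735-55603984, plus strand: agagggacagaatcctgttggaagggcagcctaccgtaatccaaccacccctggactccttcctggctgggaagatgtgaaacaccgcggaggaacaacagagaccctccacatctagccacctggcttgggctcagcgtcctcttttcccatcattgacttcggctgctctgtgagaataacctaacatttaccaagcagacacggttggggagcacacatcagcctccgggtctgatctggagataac
Irf7, chr7:141266425-141266674, minus strand: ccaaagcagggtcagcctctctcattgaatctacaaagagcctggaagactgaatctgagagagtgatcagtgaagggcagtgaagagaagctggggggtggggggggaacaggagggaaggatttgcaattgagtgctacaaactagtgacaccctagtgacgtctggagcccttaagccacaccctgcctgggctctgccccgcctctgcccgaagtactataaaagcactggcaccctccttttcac
Trim25, chr11:88999153-88999402, plus strand: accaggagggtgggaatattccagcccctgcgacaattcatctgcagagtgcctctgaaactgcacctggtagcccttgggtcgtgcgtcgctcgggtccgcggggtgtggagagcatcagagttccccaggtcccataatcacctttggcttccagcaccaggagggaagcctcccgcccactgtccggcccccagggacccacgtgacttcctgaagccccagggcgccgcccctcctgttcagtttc
Stat2, chr10:128270248-128270497, plus strand: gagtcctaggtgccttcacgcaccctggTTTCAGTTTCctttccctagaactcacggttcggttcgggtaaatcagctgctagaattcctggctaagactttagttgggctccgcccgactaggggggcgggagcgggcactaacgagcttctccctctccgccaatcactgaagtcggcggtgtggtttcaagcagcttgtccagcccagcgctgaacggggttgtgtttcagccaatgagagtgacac

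In Isg15 the matches overlapped as a run, and the one nearest the start began at position -66. In Stat2 a single match began at -222. No match stood in the windows of Irf7, Irf9 or Trim25, which says only that these letters were not in them. The other 6 genes with a match before the start, chosen after the search, are shown with 6 bases on each side where the window reached that far. The search itself fixed the GAAA or TTTC letters of each site, so their likeness is not a result.
Ifit1, chr19:34640779-34640819, plus strand: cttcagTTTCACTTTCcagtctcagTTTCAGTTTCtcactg
Ifit3, chr19:34583367-34583422, plus strand: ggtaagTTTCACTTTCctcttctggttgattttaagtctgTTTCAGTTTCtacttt
Oas1a, chr5:120907526-120907551, minus strand: tctcggGAAATGGAAACTGAAAatct
Oas3, chr5:120777719-120777740, minus strand: ggaggaGAAAACGAAAgtgaag
Rsad2, chr12:26456557-26456578, minus strand: tccaacTTTCATTTTCagaaaa
Bst2, chr8:71537581-71537608, minus strand: ttccagGAAAATGAAACTGAAAggctgc

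The nearest matches began at -85 in Ifit1, -122 in Ifit3, -14 in Oas1a, -75 in Oas3, -120 in Rsad2 and -124 in Bst2. In Ifih1, Ddx58 and Eif2ak2 the match lay after the start.

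The tables gave TPM, a level corrected for transcript length that sums to the same total in each library and keeps no read depth, so no counting error can be given. Between 12719 and 14092 genes were above 0 in a library. Germinal centre and B cell markers summed to between 11482.5 and 14832 TPM, with 12 of 12 listed genes found. These sums did not overlap between genotypes in centrocytes, at 13568 to 14832 TPM in controls and 11482.5 to 13250 TPM in mutants, where 10 of the 12 had negative fold changes and none was called. In centroblasts they ran from 13104.5 to 13819 TPM in controls and from 11672 to 13516 TPM in mutants. The part of this in the genotype results was not tested. Centroblast mutant libraries 4 and 5 stood apart. Ribosomal protein genes made up 12.6% and 17.1% of their TPM against 7.43% to 10.1% in the other 18, and library 5 had the fewest genes above 0. Their log2 difference from centroblast mutants 1 to 3 went down with transcript length, with a Spearman coefficient of -0.58 across the 36 tested genes and -0.54 across 9795 of all genes tested, which are not independent points. Many of the counts, medians and named values that moved without both libraries are given beside the results they touch, but not all of them. Gene-level values do not show which Myd88 allele was read, so the genotype labels could not be checked.

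The level of the 37 genes spanned a wide range. In 34 genes every library was above 0, 18 stayed under 20 TPM in every library, 6 stayed under 5 TPM, and 3 were at 100 TPM or more throughout. Those 3 were Ifi27l2a, a mitochondrial protein gene, at 258 to 699 TPM, Samhd1, which degrades deoxynucleotides, at 253 to 478 TPM, and the nuclear body gene Sp100 at 183 to 350 TPM. Several of the best known antiviral genes were near the other end. Mx1, a GTPase that traps viral particles, lay between 0.132 and 8.13 TPM. Mx2, annotated as a polymorphic pseudogene, lay between 0 and 3.18 TPM, and Ifit1, which binds foreign RNA caps, between 0.166 and 2.84 TPM. Oas2 reached 2.05 TPM and Rsad2, which makes a chain-terminating nucleotide, 3.22 TPM. Ifi44 did not pass the filter of 1 TPM in at least 5 libraries and reached 0.909 TPM.

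By role, the RNA sensors differed widely in level. Dhx58 lay between 28.3 and 42.3 TPM, Ddx58 between 3.24 and 19.3 TPM and Ifih1 between 0.678 and 5.21 TPM, while the DNA and RNA sensor Zbp1 lay between 21.3 and 61.2 TPM. The 3 transcription factors were at like levels, Irf7 at 28.9 to 49.6 TPM, Irf9 at 23.3 to 69.1 TPM and Stat2 at 12.2 to 52.5 TPM. In the ISG15 system, the ubiquitin-like Isg15 was at 8.12 to 28.5 TPM, its remover Usp18 at 3.23 to 15.6 TPM, the ligase Herc6 at 10.7 to 23.1 TPM and the ligase Trim25 at 17.1 to 53.5 TPM. Among RNA-binding effectors the editing enzyme Adar (26.5 to 72.2 TPM), the exonuclease Isg20 (35 to 59.8 TPM) and the translation-blocking kinase Eif2ak2 (9.64 to 35.9 TPM) led. Far lower were Ifit2 (up to 8.29 TPM), Ifit3 (up to 10.8 TPM), Oas1a (up to 12.9 TPM), Oas3 (up to 3.74 TPM), Oasl1 (up to 11.4 TPM) and Oasl2 (up to 6.14 TPM). Bst2, which tethers budding virus to the cell, lay between 15.9 and 52.9 TPM, and the receptor transport gene Rtp4 between 0.759 and 5.88 TPM. The ADP-ribosylation genes Parp9 (30.8 to 81.9 TPM), Dtx3l (11.4 to 52.4 TPM) and Parp14 (8.76 to 55.9 TPM) were of middling level. Remaining were Ifi35 (82.7 to 129 TPM), Xaf1 (4.22 to 13 TPM) and the nucleotide kinase Cmpk2 (3.27 to 8.66 TPM). The Ifit, Oas and Mx genes are families of near copies, and whether shared reads were split between them is not given in the sources used here, so their single values are uncertain.

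**Figure D1:**
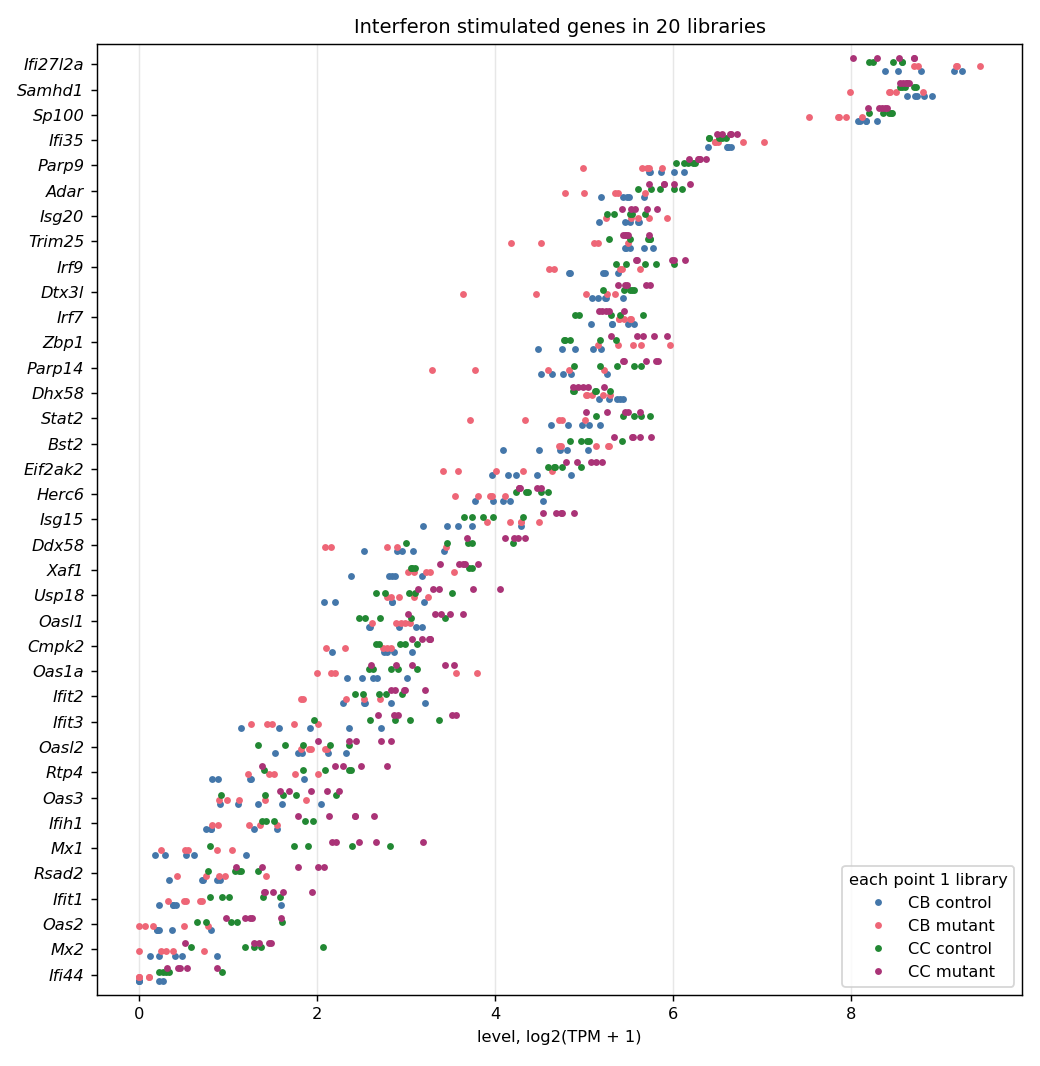
Level of each of the 37 genes on the log2(TPM + 1) scale (x axis) in each of the 20 libraries (points, coloured by group; CB, centroblast; CC, centrocyte), with genes ordered by their level. Ifi27l2a, Samhd1 and Sp100 stand at the top and Ifi44, Mx2 and Oas2 at the bottom, and several of the low genes are higher in centrocytes.

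Several of these genes lie side by side in the annotation GENCODE M21 (build GRCm38). Rsad2 and Cmpk2 are transcribed away from each other from starts 12752 bases apart on chromosome 12. Dtx3l and Parp9 overlap by their first bases on opposite strands of chromosome 16, next to Parp14. Whether the reads were counted by strand is not given, so values of this overlapping pair may share reads. Irf9 overlaps Rnf31 on the same strand of chromosome 14, and Irf7 overlaps Phrf1 on the other strand of chromosome 7.

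In centrocytes, 2 of the 36 tested genes were higher in Myd88 mutants than in controls and none was lower, by limma on log2(TPM + 1) with Benjamini-Hochberg adjustment over all genes tested and adjusted p under 0.05. These were Isg15, whose product is attached to other proteins and is also secreted, and Zbp1, a sensor of nucleic acids in the left-handed helical form. Over all genes tested 0.896% were called higher and 0.307% lower in this comparison, and 1.2% in either direction, a share that comes to less than 1 gene of 36. Without adjustment 10 of the 36 had p under 0.05, as did 1094 of the 11386 genes tested. The rest of the 36 did not pass.

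Isg15 (chromosome 4, 156199424 to 156200818, minus strand) was at 13.5, 18.9, 14.7, 12.4 and 11.5 TPM in centrocyte controls 1 to 5. In centrocyte mutants 1 to 5 it was at 25.8, 24.6, 28.5, 22.2 and 25.9 TPM. Every mutant library lay above every control library, a separation seen upward in 2.63% of all genes tested, in either direction in 4.63%, and in none of the other 35. The means were 25.4 ± 2.28 and 14.2 ± 2.90 TPM (SD, n = 5 each), and the log2 fold change was 0.81 (SE 0.168, adjusted p = 0.0164, limma). Over the alternatives the adjusted p ranged from 0.00231 to 0.0681. The call was lost without centrocyte control 4 (0.769), control 5 (0.746), mutant 2 (0.821) or mutant 3 (0.77), each on the log2 scale, and without any 1 of these libraries none of the 36 was called.

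Zbp1 (chromosome 2, 173206612 to 173218923, minus strand) was at 27.7, 40.2, 35.2, 26.3 and 26.5 TPM in centrocyte controls 1 to 5. In the centrocyte mutants it was at 47.4, 59.9, 54.0, 38.5 and 49.6 TPM. The groups overlapped only through mutant 4, which lay below control 2. The log2 fold change was 0.67 (SE 0.162, adjusted p = 0.0427, limma), from means of 49.9 ± 7.94 and 31.2 ± 6.22 TPM (SD, n = 5 each). The call was close to the threshold. It was lost without any 1 of 11 of the 20 libraries, with log2 fold changes of 0.599 to 0.761 over all 20 omissions, and its adjusted p ranged from 0.00034 to 0.163 over the alternatives.

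Counting Isg15 and Zbp1, 29 of the 36 had a fold change above 0, against 6234 of the 11386 genes tested. The median of the 36 was 0.29 against 0.016 for all genes tested. Such a median over genes that passed a filter on level is a description. Ifit1 and Rsad2 reached 1 TPM in 5 mutant libraries but not in 5 control libraries, and so passed the filter with the help of mutants. Oas2 and Mx2 reached it on neither side alone. Over the 32 genes that reached it in controls the median was 0.287. The largest values after Isg15 and Zbp1 were those of Ifih1 (0.65, adjusted p = 0.149), Mx1 (0.61, adjusted p = 0.514), Oasl2 (0.61, adjusted p = 0.171) and Rsad2 (0.58, adjusted p = 0.236), all by limma. Ifih1 was at 1.60, 2.87, 1.86, 1.69 and 2.63 TPM in the controls and at 4.37, 4.36, 5.21, 2.44 and 3.39 TPM in the mutants, overlapping through mutant 4. Bst2 was at 31.6, 42, 32.3, 30.3 and 27.6 TPM in the controls and at 52.9, 48.6, 45.8, 45.4 and 39.4 TPM in the mutants, where mutant 5 alone lay under control 2 (0.50, adjusted p = 0.171, limma). With only the 2 centrocyte groups in the fit Bst2 was called as well (adjusted p = 0.0284, limma). All 11 RNA-binding effectors had values above 0, from 0.08 in Adar to 0.61 in Oasl2, and none passed. Of the 4 ADP-ribosylation and nuclear body genes none passed either, their median being 0.11.

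The 3 transcription factors showed little difference in centrocytes. Irf7, which drives interferon output downstream of MYD88, was at 29.6, 41.3, 49.6, 28.9 and 38.4 TPM in the controls and at 38.0, 36.8, 42.5, 35.8 and 35.0 TPM in the mutants. Its log2 fold change was 0.03 (SE 0.125), with all mutants inside the range of the controls. Irf9 was at 40.03, 63.5, 55.1, 43.4 and 50.4 TPM in the controls and at 62.6, 63.3, 69.1, 46.8 and 47.2 TPM in the mutants (0.19, SE 0.188). Stat2 was at 34.0, 52.5, 48.9, 46.3 and 42.3 TPM in the controls and at 37.4, 44.0, 48.3, 42.8 and 31.4 TPM in the mutants (-0.13, SE 0.186). Both overlapped widely between genotypes, and the adjusted p of these 3 was 0.957 or more (limma).

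**Figure D2:**
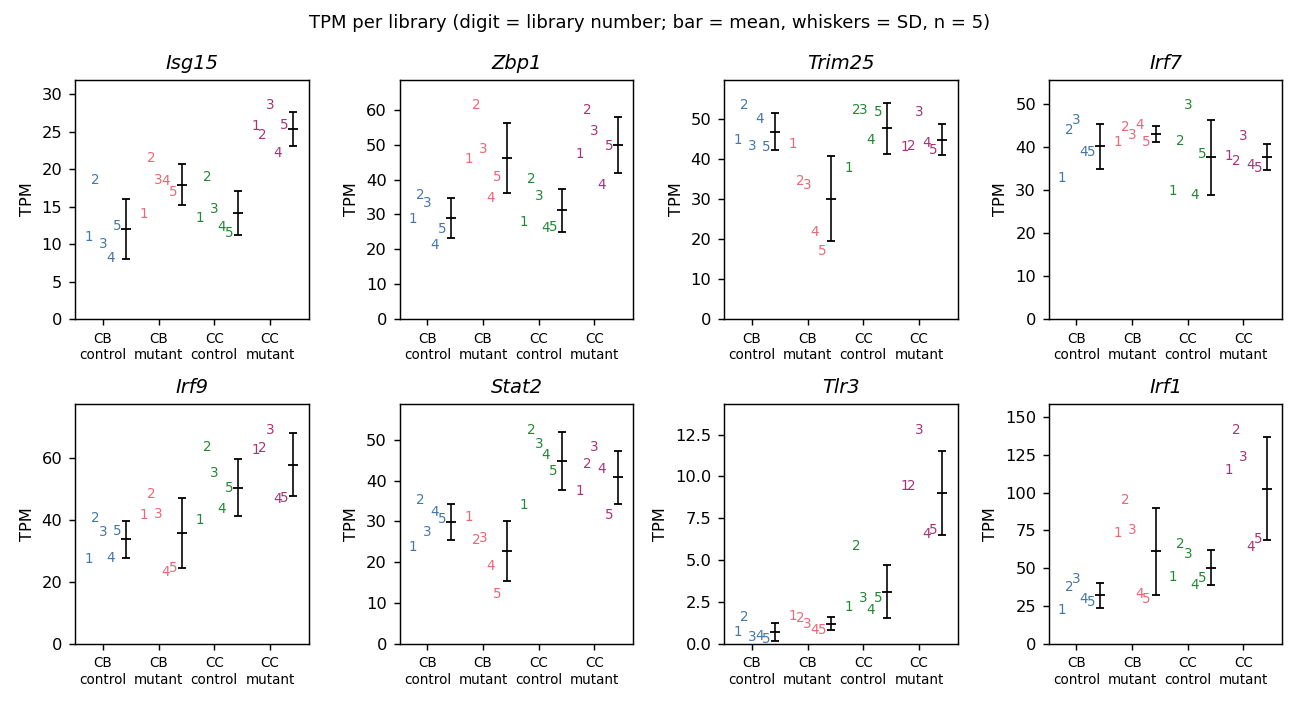
TPM of Isg15, Zbp1, Trim25, Irf7, Irf9, Stat2, Tlr3 and Irf1 in each library (y axis, linear from 0; each digit is a library number), by group (CB, centroblast; CC, centrocyte), with the mean (bar) and SD (whiskers, n = 5). The 5 centrocyte mutants lie above all centrocyte controls in Isg15, and centroblast mutants 4 and 5 are the lowest of their group in Trim25, Stat2 and Irf1.

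In centroblasts, 1 of the 36 genes was higher in mutants, Zbp1, and 1 was lower, Trim25, a ubiquitin ligase that activates the RNA sensor DDX58. Over all genes tested 0.905% were called higher, 3.38% lower and 4.29% in either direction. Of the 36, 11 had an unadjusted p under 0.05, as did 3452 of the 11386 genes tested, a like share. In no gene of the 36 were the 5 mutants apart from the 5 controls, where 0.755% of all genes tested were apart upward, 2.99% downward and 3.74% in either direction. The median fold change was -0.06, against -0.157 for all genes tested.

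Zbp1 was at 28.8, 35.4, 33.3, 21.3 and 25.9 TPM in centroblast controls 1 to 5 and at 45.8, 61.2, 48.9, 34.6 and 40.7 TPM in centroblast mutants 1 to 5. Only mutant 4 fell inside the range of the controls. The log2 fold change was 0.65 (SE 0.162, adjusted p = 0.0288, limma), close in size to that in centrocytes. Its call was lost without centroblast control 4 (0.553) or control 5 (0.621), and the adjusted p ranged from 0.00033 to 0.147 over the alternatives. Without centroblast mutants 4 and 5 the value was 0.833 (adjusted p = 0.00701, limma).

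Trim25 (chromosome 11, 88999376 to 89020293, plus strand) was at 44.8, 53.5, 43.2, 50.02 and 43.1 TPM in the centroblast controls. In the centroblast mutants it was at 43.9, 34.7, 33.6, 21.9 and 17.1 TPM, so that mutant 1 overlapped the controls and mutants 4 and 5 were the lowest. The log2 fold change was -0.69 (SE 0.174, adjusted p = 0.0311, limma), from means of 30.2 ± 10.7 and 46.9 ± 4.64 TPM (SD, n = 5 each). Without mutants 4 and 5, whose values were low for long transcripts (5566 bases as the median for Trim25), the value was -0.33 (adjusted p = 0.137, limma) and the call was lost. It was lost too without control 2 (-0.64), control 4 (-0.663), control 5 (-0.716), mutant 4 (-0.595) or mutant 5 (-0.509) alone, and the adjusted p ranged from 0.00278 to 0.219. The part of length in it was not tested. In centrocytes Trim25 was at 37.9, 52.3, 52.3, 44.7 and 51.8 TPM in controls and at 43.0, 43.2, 51.9, 44.1 and 42.4 TPM in mutants, a log2 difference of -0.08.

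Isg15 did not pass in centroblasts. It was at 10.9, 18.6, 9.997, 8.12 and 12.4 TPM in the controls and at 14, 21.5, 18.6, 18.5 and 17 TPM in the mutants, with control 2 alone among the mutant values. The log2 fold change was 0.58 (SE 0.168, adjusted p = 0.0514, limma). Without centroblast control 2 it was 0.739 (adjusted p = 0.0162) and without mutant 1 it was 0.659 (adjusted p = 0.0117), both called by limma. Without mutants 4 and 5 it was 0.581 (adjusted p = 0.106, limma).

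Irf7 was at 32.8, 44.0, 46.1, 38.8 and 38.7 TPM in centroblast controls and at 41.1, 44.7, 42.6, 45.0 and 41.1 TPM in mutants (0.10, SE 0.125). Irf9 was at 27.4, 40.8, 36, 27.7 and 36.6 TPM in controls and at 41.4, 48.4, 41.9, 23.3 and 24.3 TPM in mutants, with mutants 1 to 3 above and mutants 4 and 5 below all controls (0.04, SE 0.188). Stat2 was at 23.8, 35.2, 27.3, 32.3 and 30.5 TPM in controls and at 31.2, 25.3, 26.0, 19.2 and 12.2 TPM in mutants (-0.43, SE 0.186, adjusted p = 0.132, limma). Without mutants 4 and 5 the Stat2 value was -0.107 and the Irf9 value was 0.386 (adjusted p = 0.219, limma), while Irf7 was at 0.10. Parp14, with a median transcript of 7417 bases, was at 36.4, 27.4 and 23.2 TPM in mutants 1 to 3 and at 12.7 and 8.76 TPM in mutants 4 and 5, against 21.8 to 37.2 TPM in the controls.

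The counts in centroblasts moved with single libraries. Without mutant 1 they were 2 higher and 9 lower, the lower genes beside Trim25 being Dtx3l, Eif2ak2, Ifit2, Parp14, Parp9, Samhd1, Sp100 and Stat2, while all genes called went from 488 to 3102. Without control 4 or control 5 none was called, with 185 and 169 calls over all genes. Without mutants 4 and 5 together there were 2 higher, Zbp1 and Bst2 (0.596, adjusted p = 0.0414, limma), and none lower, and the medians were 0.0197 for the 36 and -0.0185 for all genes. Over all genes 244 were then higher and 165 lower of 11352, in place of 103 and 385. After scaling by the median of ratios, under which the median of all genes was 0.0076, there were 3 higher (Zbp1, Isg15 and Bst2) and 1 lower (Trim25), and the calls over all genes were 285 higher and 355 lower in place of 103 and 385.

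**Figure D3:**
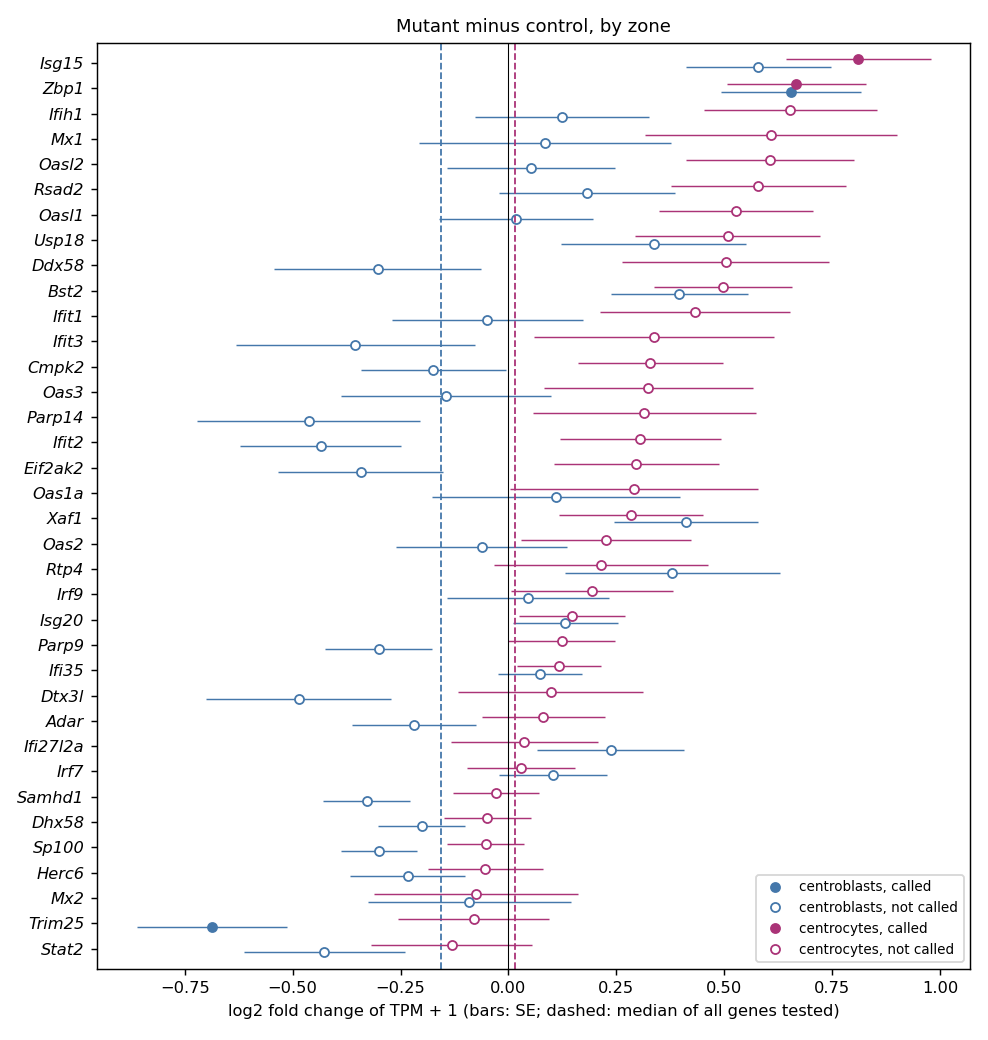
Mutant minus control log2 fold change of TPM + 1 (x axis; points, bars are SE) for the 36 tested genes in centroblasts and centrocytes, with filled points for genes called by limma and dashed lines at the median of all genes tested (-0.157 and 0.016). Isg15 and Zbp1 stand at the right in both cell types, and Trim25 stands at the left in centroblasts, its difference between cell types not passing.

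The mutant effect was then compared between the cell types by the difference of both fold changes. None of the 36 passed, and the lowest adjusted p was 0.403 (limma). Of them 8 had an unadjusted p under 0.05, against 1322 of the 11386 genes tested. Among all genes tested 0.0176% were called. For Zbp1 the difference was 0.01 (SE 0.229), for Isg15 0.23 (SE 0.237) and for Trim25 0.61 (SE 0.246), centrocytes minus centroblasts. The median was 0.298 for the 36 and 0.184 for all genes tested, and Ddx58 (0.81) and Parp14 (0.78) had the largest values. In these genes centroblast mutants 4 and 5 differed from mutants 1 to 3 by -0.92 and -1.35 on the log2 scale. The values of Ddx58 and Parp14 without mutants 4 and 5 are not reported here. Without centroblast mutants 4 and 5 the medians were 0.172 and 0.0371, and the differences were 0.245 for Trim25, 0.23 for Isg15 and -0.166 for Zbp1, again with none of the 36 called.

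Centrocytes held more of many of these transcripts than centroblasts did. Of the 36, 12 were higher among controls with 1 lower (Dhx58). Among mutants 28 were higher and 1 lower (Ifi27l2a), by limma as above. The background was high. In controls 21.2% of all genes tested were called higher and 9.48% lower, 30.7% in all. In mutants 48.8% were called higher and 12.6% lower, 61.5% in all. The median of all genes lay at 0.136 in controls and 0.336 in mutants, so a gene at those values moved with the bulk of genes, and the medians of the 36 were 0.28 and 0.64. Of the genes, 5 (Ifit1, Oas2, Mx1, Mx2 and Rsad2) did not reach 1 TPM in 5 centroblast libraries, and so passed the filter with the help of centrocytes. Among the other 31, 9 calls were upward and 1 was downward among controls, against 23 and 1 among mutants. After scaling by the median of ratios 9 of the 36 were higher with 2 lower for controls, and 18 were higher with 6 lower for mutants, 10 and 19 of them among the calls above. The same scaling turned the calls over all genes from 2419 higher and 1079 lower to 2037 and 2009 in controls, and from 5561 and 1436 to 3362 and 3286 in mutants. Under it Irf7 (-0.54), Ifi35 (-0.39), Isg20 (-0.34), Samhd1 (-0.18) and Dhx58 (-0.46) were called lower in mutant centrocytes beside Ifi27l2a (-0.96), and the calls of Sp100, Isg15, Oasl2, Oasl1, Oas3, Herc6, Usp18, Bst2, Xaf1 and Rtp4 were lost.

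Mx1 had the largest value in both genotypes. It passed the filter only with the help of centrocytes, so its fold changes and p-values are a description. In controls it was at 0.132, 1.30, 0.535, 0.442 and 0.225 TPM in centroblasts and at 0.741, 6.07, 4.26, 2.33 and 2.74 TPM in centrocytes. In mutants it was at 0.835, 0.469, 1.07, 0.433 and 0.188 TPM in centroblasts and at 3.64, 5.34, 8.13, 4.54 and 3.48 TPM in centrocytes. Centrocyte control 1 lay inside the range of the centroblast controls, and the mutant groups did not overlap. The log2 fold changes were 1.37 (SE 0.292, adjusted p = 0.00134, limma) and 1.89 (SE 0.292, adjusted p = 1.98e-05, limma), on a scale that understates changes of genes this low.

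Ifit3, an RNA-binding partner of IFIT1, followed a like course. It was at 1.97, 5.58, 2.79, 1.21 and 4.13 TPM in centroblast controls and at 2.91, 9.37, 7.24, 6.35 and 5.05 TPM in centrocyte controls, overlapping (0.83, adjusted p = 0.0271, limma). In mutants it was at 1.81, 1.40, 1.71, 3.04 and 2.33 TPM in centroblasts and at 6.53, 5.44, 10.8, 6.28 and 10.5 TPM in centrocytes, apart (1.52, adjusted p = 0.000109, limma). The sensor gene Ddx58 was at 4.74, 9.76, 7.44, 6.48 and 6.77 TPM in centroblast controls and at 7.01, 17.3, 12.4, 9.98 and 11.9 TPM in centrocyte controls (0.64, adjusted p = 0.0468, limma). In mutants Ddx58 was at 9.87, 5.88, 6.48, 3.47 and 3.24 TPM in centroblasts and at 18.1, 17.5, 19.3, 11.9 and 16.3 TPM in centrocytes (1.45, adjusted p = 4.09e-05, limma).

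The other genes higher in control centrocytes were Mx2 (0.88), Rtp4 (0.80), Oas2 (0.67), Ifih1 (0.58), Stat2 (0.57), Irf9 (0.57), Xaf1 (0.52), Bst2 (0.43) and Adar (0.41). Among them Mx2 and Oas2 had passed the filter with the help of centrocytes. None of the 36 had its 5 centrocyte controls apart from its 5 centroblast controls, whereas 17% of all genes tested were apart upward and 9.51% downward, 26.5% in all. Dhx58, whose product modulates the other RNA sensors, was at 34.9, 40.2, 41.3, 37.8 and 42.3 TPM in centroblast controls and at 28.7, 38.2, 34.0, 28.3 and 33.8 TPM in centrocyte controls, a fold change of -0.27 (adjusted p = 0.0478, limma). Of these 13 calls, those of Mx1 and Mx2 held without each of the 20 libraries, and the other 11 were lost without at least 1. Mx1 and Mx2 had passed the filter only with the help of centrocytes, so that their calls held is a description. Without centrocyte control 2 there were 3 calls and without centrocyte control 3 there were 5, while the calls over all genes went from 3498 to 2715 and 2636. Leaving out centroblast control 1, 3 or 4 gave 6, 6 and 7 calls, and leaving out centrocyte control 4 gave 8, with 2865, 2901, 3104 and 3018 calls over all genes.

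In mutants 18 of the 36 were apart upward and 1 downward, against 28.7% and 7.91% of all genes tested, 36.6% in all. The 36 include the 5 genes that passed the filter with the help of centrocytes. After Mx1, Ifit3 and Ddx58 the largest values were those of Parp14 (1.30), Ifih1 (1.11), Eif2ak2 (1.03) and Ifit1 (1.03). Ifit1 had passed the filter with the help of centrocytes. Mx1 and Mx2, both counted as GTPase or membrane effectors, were among those helped through the filter by centrocytes. Every tested gene of the ISG15 system, of the GTPase and membrane effectors and of the ADP-ribosylation and nuclear body group was called higher, 4 of 4 in each, where 48.8% of all genes tested were. Of these calls, those of Isg15, Herc6, Usp18, Bst2, Rtp4 and Sp100 were lost with median-of-ratios scaling, and those of Trim25, Usp18, Bst2 and Rtp4 without centroblast mutants 4 and 5. Ifi27l2a was at 417, 428, 580, 584 and 699 TPM in centroblast mutants and at 416, 258, 369, 311 and 416 TPM in centrocyte mutants, a log2 fold change of -0.61 (adjusted p = 0.00432, limma). Its lowest centroblast and highest centrocyte values nearly touched. Zbp1 (0.12) and Irf7 (-0.19) were among the 7 not called. Centroblast mutants 4 and 5 weighed on this comparison. Without them 21 were higher and none lower, and the medians were 0.488 for the 36 and 0.173 for all genes tested. Over all genes 4079 were then higher and 1695 lower of 11352, in place of 5561 and 1436. The calls of Oasl1, Oasl2 and Oas3 were lost too without both libraries. So were those of Irf9 (0.374, adjusted p = 0.0532) and Ifi27l2a (-0.429, adjusted p = 0.0731), both by limma.

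**Figure D4:**
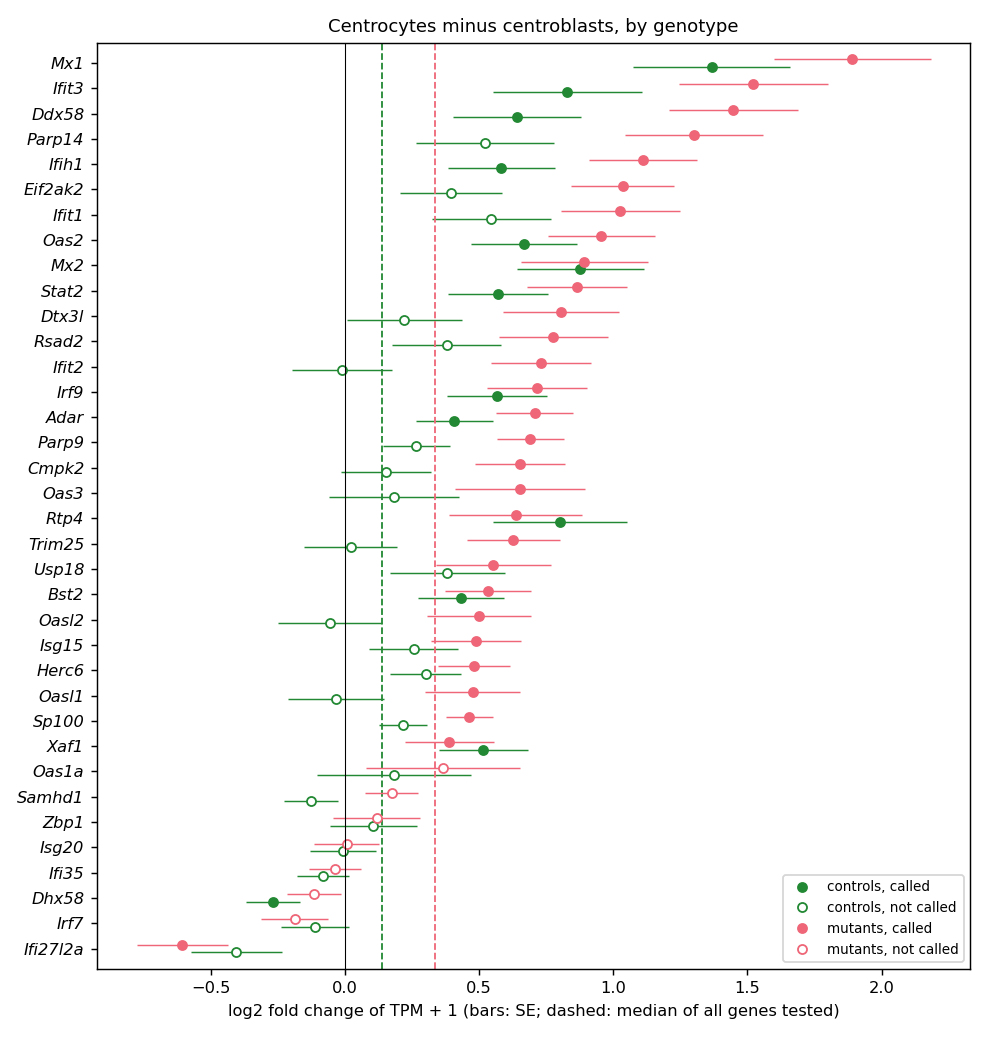
Centrocyte minus centroblast log2 fold change of TPM + 1 (x axis; points, bars are SE) for the 36 tested genes in controls and mutants, with filled points for genes called by limma and dashed lines at the median of all genes tested (0.136 and 0.336). Mx1, which passed the filter with the help of centrocytes, Ifit3 and Ddx58 stand far right of both lines, and Dhx58, Irf7 and Ifi27l2a lie left of 0.

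Markers of other cells moved with the zone and the genotype. The macrophage list, with 12 of its 13 symbols found, summed to 138 ± 12.5 TPM in centroblast controls and 302 ± 57.8 TPM in centrocyte controls (SD, n = 5), with 10 of 12 called higher. In mutants the sums were 158 ± 37.6 and 372 ± 98.4 TPM. The sums ranged from 117.9 to 149.5 TPM in centroblast controls, from 116.6 to 190.1 TPM in centroblast mutants, from 259.0 to 401.8 TPM in centrocyte controls and from 234.6 to 461.5 TPM in centrocyte mutants, and no marker of this list was at 0 in any library. Between genotypes in centrocytes 2 of 12 were called higher, Itgam (1.30) and Ly6c2 (1.81), while 7 of the 12 had values above 0 and 5 below, down to -0.50. Naive B cell markers moved with the zone too, 6 of 7 higher among controls and 7 of 7 among mutants, with sums of 121.2 to 274.0 TPM in centroblasts and 554.6 to 866.4 TPM in centrocytes and no marker at 0. Between genotypes 2 of these 7 were lower in mutant centroblasts, Fcer2a (-0.60) and Klf2 (-1.21), with a median of -0.51 for the list. In mutant centrocytes 2 of 7 were higher, with a median of 0.30. Red cell markers moved with the genotype. Of 10 listed, 8 were found and 4 tested, and 3 of the 4 were higher in mutant centroblasts and 1 in mutant centrocytes. Their sums ran from 22.84 to 270.4 TPM in centroblast controls, 323.3 to 807.9 TPM in centroblast mutants, 41.62 to 272.7 TPM in centrocyte controls and 232.6 to 579.7 TPM in centrocyte mutants, with Hba-a1, Hba-a2 and Hbb-b2 listed at 0 in every library. The part of such cells in the interferon stimulated genes was not tested. Of the plasmacytoid dendritic cell markers, the main interferon producing cell, Siglech reached 0.911 TPM, Ccr9 0.496 TPM, Klk1 1.01 TPM and Cox6a2 2.65 TPM, each with 0 in some library. The sum of that list was between 273.3 and 993.8 TPM and came mostly from Ly6d, which B cells express, at 263 to 948 TPM. The level of Pacsin1, also among the 6 listed, is not reported here. Of the list 2 genes were tested, and both were called higher in centrocytes of both genotypes. Their log2 fold changes were 0.841 and 1.333 in controls and 1.094 and 1.233 in mutants, and neither was called between genotypes.

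Within the controls, 1 library number stood out in both cell types. Control 2 was the highest of its 5 libraries in 26 of the 36 genes in centroblasts (72.2%) and in 25 in centrocytes (69.4%), and in 20 genes in both (55.6%). Over all genes tested it was the highest in 37.4% and 25.5%, and in both in 12.7%. Control 1 was the lowest in 17 of the 36 in centroblasts (47.2%) and 21 in centrocytes (58.3%), and in 10 in both (27.8%). For all genes tested it was the lowest in 31.5% and 40.0%, and in both in 17%. The mean of log2(TPM + 1) over the 36 ran from 3.61 to 4.13 in centroblast controls and from 3.81 to 4.42 in centrocyte controls, with control 1 lowest and control 2 highest in each. It ran from 3.53 to 3.93 in centroblast mutants and from 4.25 to 4.50 in centrocyte mutants. Whether libraries with the same number came from 1 mouse is not stated in the labels. Without control 2 of both cell types, an alternative chosen after seeing the data, Isg15 was called in centroblasts too (0.739, adjusted p = 0.0115), Trim25 was not (-0.64, adjusted p = 0.104), and in centrocytes Isg15 was at 0.913 (adjusted p = 0.00231) and Zbp1 at 0.761 (adjusted p = 0.02), all by limma. In the zone comparison of controls 9 were then higher and 1 lower, with 2116 higher and 912 lower of 11322 over all genes.

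**Figure D5:**
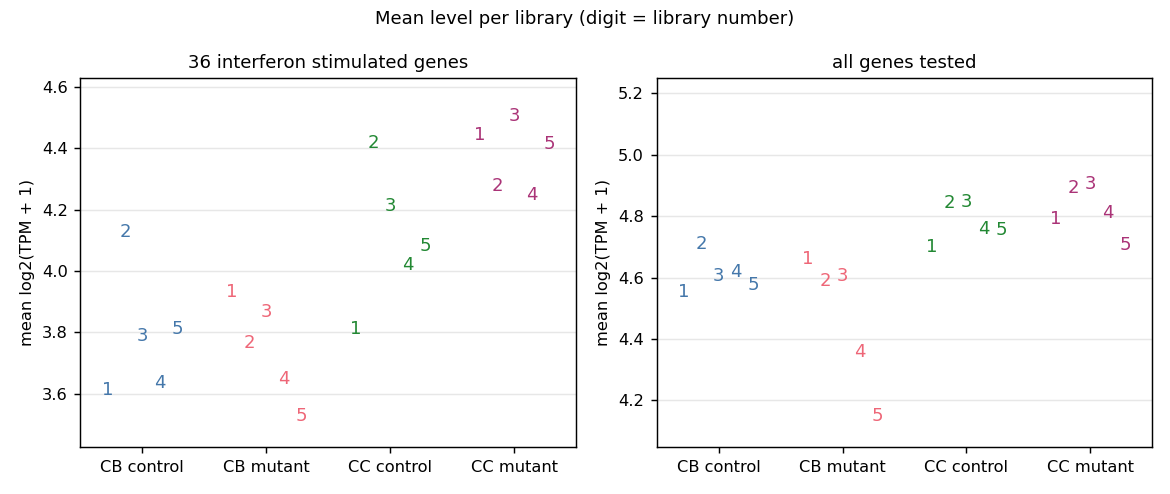
Mean of log2(TPM + 1) in each library (y axis; each digit is a library number) over the 36 tested genes (left) and over all genes tested (right), by group (CB, centroblast; CC, centrocyte). Control 2 is the highest control for the 36 genes in both cell types, at 4.13 and 4.42, and centroblast mutants 4 and 5 are the lowest over all genes tested.

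Interferon transcripts themselves were hardly seen. Ifnb1, Ifna1, Ifna2, Ifna4, Ifna5 and Ifne were listed at 0 in every library, Ifnk reached 1.11 TPM, and Ifng, the type II interferon, reached 1.62 TPM. The total depth is unknown, so no limit can be put on the true level. Receptor transcripts were present. Ifnar1 was at 15.0, 15.5, 16.4, 13.98 and 15.1 TPM in centroblast controls and at 16.6, 15.0, 13.9, 9.38 and 5.34 TPM in centroblast mutants, the last pair being the lowest (-0.40, adjusted p = 0.166, limma). Without that pair the Ifnar1 value was -0.00438. In centrocytes Ifnar1 was at 20.03 to 28.8 TPM in controls and at 21.2 to 27.3 TPM in mutants (0.02). Ifnar2 was at 11.97 ± 1.80, 10.8 ± 2.48, 17.4 ± 2.51 and 18.3 ± 2.55 TPM (SD, n = 5) in centroblast controls and mutants and centrocyte controls and mutants, with no call between genotypes.

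Of 43 other genes of interferon production and signalling found in the tables, 34 were tested. In centroblasts none was higher in mutants and 1 was lower, Irf5, a factor that acts with MYD88 on cytokine genes. In centrocytes 1 was higher, Tlr3, a sensor of double-stranded RNA, and none was lower, and in the difference none was called. Between zones 19 of the 34 were higher in control centrocytes and 28 in mutant centrocytes, with none lower, against the background shares above. The receptor genes Ifnar1, Ifnar2, Ifngr1 and Ifngr2 were all higher in centrocytes of both genotypes, and so were the sensors Tlr3, Tlr7, Tlr9 and Tmem173. Tlr3 was too low for the filter in centroblasts alone, and so passed it with the help of centrocytes. Whether others of the 34 did so was not determined.

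Irf5 was at 185, 202, 211, 237 and 218 TPM in centroblast controls and at 171, 153, 153, 164 and 155 TPM in centroblast mutants, without overlap (-0.40, SE 0.0827, adjusted p = 0.0119, limma). Without mutants 4 and 5 it was -0.401 (adjusted p = 0.014, limma). After scaling by the median of ratios it was -0.215 and not called (adjusted p = 0.207, limma). Tlr3 was at 2.22, 5.86, 2.73, 1.99 and 2.73 TPM in centrocyte controls and at 9.46, 9.43, 12.8, 6.56 and 6.82 TPM in centrocyte mutants, without overlap (1.32, SE 0.23, adjusted p = 0.0042, limma). In centroblasts Tlr3 stayed at 1.67 TPM or less.

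Irf1, which is both a signalling factor and an interferon target, had large but uneven values. It was at 43.9, 65.8, 59.4, 39.0 and 43.3 TPM in centrocyte controls and at 115, 142, 124, 64.2 and 69.3 TPM in centrocyte mutants, where only mutant 4 lay within the controls (0.98, SE 0.293, adjusted p = 0.135, limma). Mutants 4 and 5 were the lowest of their group. In centroblasts Irf1 was at 22.5, 37.8, 42.8, 29.7 and 27.4 TPM in controls and at 73.4, 95.4, 75.1, 33.1 and 29.3 TPM in mutants (0.80, SE 0.293, adjusted p = 0.0917, limma). There mutants 1 to 3 lay above all controls, and mutants 4 and 5 lay within them. Without centroblast mutants 4 and 5 Irf1 was called in centroblasts at 1.34 (adjusted p = 0.00805, limma). With the same libraries left out it passed in centrocytes at the value above (adjusted p = 0.0233, limma), since the fit shares 1 estimate of spread. With median-of-ratios scaling Irf1 was called in centroblasts (0.986, adjusted p = 0.0183) and in centrocytes (0.946, adjusted p = 0.0378), both by limma.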

How the data were processed

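RNA-seq had been run on total RNA of 20 sorted B cell libraries in 4 groups of 5, with a stranded mRNA kit per the labels' protocols. The authors deposited gene-level TPM values, 1 table per library, so depth is unknown. Reads were aligned with STAR to mm10 per the submitters' processing notes. The counting tool, annotation and use of strand were not given in the sources used here. No column was left unmapped (0).

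Values were taken as log2(TPM + 1), so folds of low genes are understated. Genes at 1 TPM or more in at least 5 libraries (11386 of 23382) were fitted with limma 3.58.1 in R 4.3.3, with 4 group means, 16 residual degrees of freedom, a variance trend and robust moderation. Tests were two-sided, p-values were adjusted by Benjamini-Hochberg over all genes tested, and the threshold was 0.05. The comparisons were genotype within each zone, zone within each genotype and the difference of the genotype effects. The code was tested on simulated data. Other steps used Python 3.11.15 with pandas 2.3.3, and figures used matplotlib 3.10.9. The members and all gene lists were chosen with earlier results of these data known. Values in every library were given for members called, or not overlapping, in a genotype comparison and for Irf7, Irf9 and Stat2. Those of Mx1, Ifit3, Ddx58, Parp14, Dhx58, Bst2, Ifih1 and Ifi27l2a were added after their values were seen. Alternatives were another pseudocount, other filters, median-of-ratios scaling, no trend or robust moderation, only the groups compared, a replicate block, and leaving out libraries. The values of some pathway and marker genes are not reported here.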

Additional observations from a re-analysis of the deposited data

Results flagged for a closer look

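Among 52 groups of 5 libraries checked for a single library apart from the rest, 3 were picked out, where chance picks about 1 in 20 groups. Trim25 in centrocyte mutant 3 was at 51.9 TPM, and the other centrocyte mutants lay between 42.4 and 44.1 TPM. Tlr3 in centroblast control 2 was at 1.63 TPM, with the next highest control at 0.683 TPM. Tlr3 in centrocyte control 2 was at 5.86 TPM, with the next highest control at 2.73 TPM.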

How the results depend on the processing

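Of the 36 genes tested, those called between genotypes in centroblasts numbered 2, which became 1 with no filter, 4 with median-of-ratios scaling, 0 with only the 2 groups compared, and 0 to 11 with 1 library left out. In centrocytes the 2 calls became 1 with a pseudocount of 0.1, with no filter, with a filter of 5 TPM and with no trend or robust fit, 3 with only the 2 groups compared (Bst2 added), and 0 to 2 with 1 library left out. Between zones, the 13 calls in controls became 8 with a filter of 5 TPM, which left 27 of the genes tested, and 3 to 17 with 1 library left out, and the 29 in mutants became 24 to 29. Beyond that filter, the cause was not tested. With 1 library left out the median log2 fold change of the genes ranged from -0.12 to 0.0383 in centroblasts, 0.147 to 0.335 in centrocytes, 0.227 to 0.393 between zones in controls, 0.54 to 0.731 in mutants and 0.223 to 0.403 for the difference of genotype effects, where 0 genes were called throughout. That difference had a median of 0.0919 with median-of-ratios scaling, and the zone median in mutants was 0.346 with that scaling and 0.488 without centroblast mutants 4 and 5. Signs turned for values near 0. Ifnar2 in centroblasts was 0.00904 with median-of-ratios scaling and 0.0513 without centroblast mutants 4 and 5. Ifnar1 in centrocytes was -0.00214 with that scaling. The Zbp1 difference was -0.199 and -0.166 under the same settings. With 1 library left out the ranges were -0.0263 to 0.0996 for Ifnar1 and -0.00586 to 0.13 for Ifnar2 in centrocytes, -0.0568 to 0.133 for Irf7 in centrocytes, -0.0761 to 0.18 for Irf9 in centroblasts, and -0.0826 to 0.119 for the Zbp1 difference. With the library number as a replicate block the calls were 3 in centroblasts (Isg15 added), 2 in centrocytes, 0 for the difference, 17 between zones in controls and 29 in mutants, and Irf1 was called in centroblasts (adjusted p = 0.016, limma) and centrocytes (adjusted p = 0.00347, limma). The labels do not say that the numbers pair libraries, and not every same-numbered pair had correlated deviations over 0.1, so the block was not the main fit. Between zones 4 of 5 pairs in each genotype did, with mean r of 0.162 in controls and 0.175 in mutants against -0.0404 and -0.0433 for other numbers. Between genotypes 1 of 5 did in centroblasts and 3 of 5 in centrocytes. Libraries correlated best with their own number in 4 of 5 control and 2 of 5 mutant pairs of zones, a hint from the data and not from the design. Over all genes, the 488 calls in centroblasts became 270 with no filter, 27 with only the 2 groups, 793 with the block and 117 without control 2 of both zones. The 137 in centrocytes became 83 with a pseudocount of 0.1, 84 with a filter of 5 TPM, 302 with only the 2 groups, 387 without centroblast mutants 4 and 5, and 242 with the block. The 3498 between zones in controls became 5417 without those mutants. The 2 for the difference became 14 with the block, 4 without those mutants and 0 with median-of-ratios scaling, with no trend or robust fit and without control 2 of both zones. Depth being unknown, no limit can be set for genes listed at 0.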
